A study of Caenorhabditis elegans with 27 samples.

Results

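The X-linked siRNAs described here are the small interfering RNAs made against protein-coding genes of chromosome X in *Caenorhabditis elegans*. Members were taken as the protein-coding genes that the WBcel235 annotation places on chromosome X and whose antisense reads passed a filter on low counts (filterByExpr of edgeR, minimum count 10, grouped by genotype). They numbered 818 of the 9645 small RNAs kept, beside 6366 autosomal siRNAs. Each member is 1 gene, and its value is the sum of all reads antisense to the coding exons of that gene. Where a gene overlaps another on the opposite strand, sense reads of the other may be counted too. Genes named below that overlap a protein-coding or antisense gene in this way include *sdc-2*, *sek-1*, *clc-7*, *clec-266*, F21G4.5, *jmjd-3.2*, *vit-2*, *pkn-1*, *aakg-4* and F16F9.4. Those that overlap a non-coding RNA gene include *got-1.2*, *unc-10*, *fox-1*, *npr-8*, *chup-1*, *vit-3* and *vit-4*. A gene could pass the filter on its counts in 1 genotype alone, so the 818 are not all siRNAs of the chromosome: 1338 of the 2731 annotated X-linked genes were listed in the deposited table at all.

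Small RNA was sequenced from whole hermaphrodites, grown at 22°C and harvested 1 day into adulthood, with 6 libraries of wild type (N2) and 3 libraries of each of 7 strains that lack poly(U) polymerase (PUP) genes. The single mutants carry *pup-1(tm1021)*, *pup-2(tm4344)*, *pup-3(tm5089)* or *pup-4(om141)*. The double mutant carries *pup-1/-2(om129)*, which removes both genes, the triple mutant carries *pup-3(tm5089)* with *pup-1/-2(om129)*, and the quadruple mutant carries *pup-3(tm5089)*, *pup-4(om141)* and *pup-1/-2(om129)*. Alleles are written below as (0). All RNA was treated with RNA 5′ polyphosphatase before library construction, and strains kept over a balancer chromosome were harvested as F2 animals with neither maternal nor zygotic gene product. The strains *pup-1(0)* and the double, triple and quadruple mutants all lack *pup-1* and are named together below as the 4 strains lacking *pup-1*. Every mutant was compared with the same 6 N2 libraries, although N2 and mutant libraries were run in sets and the labels do not say which N2 libraries belong with which mutant, so calls in different mutants are not independent of each other.

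In *C. elegans*, RNA-dependent RNA polymerases copy messenger RNAs into short antisense siRNAs, which Argonaute proteins bind. Some Argonautes use these siRNAs to silence their targets, and the Argonaute CSR-1 binds siRNAs of many genes that are expressed in the germline. Chromosome X carries few germline-expressed genes and is transcribed little through much of germline development, while many of its genes act in neurons, muscle and other somatic cells. PUP enzymes add uridines to the 3′ ends of RNAs, siRNAs among them. In whole animals, fewer cells of a type and less RNA per cell cannot be told apart.

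The libraries held 972048 to 17562388 small RNA counts each (median 6692414), of which 37819 to 616173 were siRNA reads on X (median 248844). Levels are given as CPM, a library's counts scaled by its TMM-adjusted total. A level of 3 counts, taken as the floor of a library, was 0.144 to 3.74 CPM, which covers counting error only. N2 replicate 1 stood apart from the other N2 libraries. Among the 140 members that were lower in all 4 strains lacking *pup-1* it was the lowest of the 6 N2 libraries for 79, with a summed level of 8753 CPM against 11275 to 17817 CPM in the other 5. N2 replicate 4 was the highest for 75 of these 140. Replicate 1 was not low for these members alone. It was also the lowest for 20 of the 37 members higher in all 4 strains, and for 314 of all 818 members. Yet replicate 1 was the highest for 224 of the 818 as well, where replicate 4 was for 200. Its summed level over all members, 42130 CPM, was near those of replicates 3 and 5 (41743.5 and 42472 CPM). Of the N2 libraries replicate 1 held the fewest counts (2054529). Its let-7, lin-4, mir-48, mir-84 and mir-241 miRNAs, which mark late larval and adult soma, summed to 115557 CPM against 6084 to 20956 CPM in the other 5, and its muscle miRNA mir-1 stood at 91642 CPM against 3100 to 19835 CPM. The siRNAs of *msp* genes, which encode the major sperm proteins, were also higher in the strains lacking *pup-1*: they summed to 266 ± 53.4 CPM in N2 (SD, n = 6, highest 322) and to at least 332 CPM in each of the 12 libraries lacking *pup-1*. Replicates 2 and 3 of the double mutant were high for the same 5 miRNAs, at 73711 and 66945 CPM, while the other libraries except N2 replicate 1 held 6084 to 35174 CPM. The mir-35 to mir-42 miRNAs, taken as a mark of oocytes and embryos, varied widely. They summed to 52573 ± 27070 CPM in N2 (SD, n = 6), from 22718 to 93851 CPM, the highest in replicate 4. Group means (n = 3 each) were 100360 CPM for *pup-3(0)*, 78587 for *pup-2(0)* and 48428 for *pup-4(0)*. The mean was 42985 CPM for *pup-1(0)*, whose libraries ran from 12167 to 89700 CPM. It was 27688, 48584 and 28482 CPM in the double, triple and quadruple mutants. The part of these differences in the results below was not tested, and the main counts are given with and without N2 replicate 1.

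X was thinly covered by siRNAs. Of its annotated protein-coding genes 29.95% were kept, where the autosomes ran from 25.83% (chromosome V) to 47.46% (chromosome I). Among kept genes the median N2 level was 4.62 CPM per kilobase of coding sequence on X, and the autosomal medians ran from 20.2 on chromosome V to 28.8 on chromosome III. A few genes carried most of the chromosome's siRNAs: *got-1.2* alone gave 11.31% of the summed N2 CPM of X, the 10 most abundant members gave 36.51%, and the 100 most abundant gave 83.01%.

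The most abundant members per length of coding sequence were mostly short genes without an assigned function. M163.10 (chromosome X, 14470987 to 14471772) led in N2 at 10563 CPM per kilobase, followed by F02C12.3, T25B6.3 and *got-1.2*. *got-1.2* (chromosome X, 16791347 to 16793126) encodes a cytosolic aspartate aminotransferase, and its siRNAs stood at 4534 to 6365 CPM over the 6 N2 libraries, with a median of 4939. They stood at 3809, 3872 and 3236 CPM in *pup-1(0)* and at 2352, 2368 and 2426 CPM in the quadruple mutant. All of these mutant libraries lay below every N2 library, and *got-1.2* siRNAs fell by 1.11 on the log2 scale in the quadruple mutant (± 0.16 SE, quasi-likelihood test of edgeR, Benjamini-Hochberg adjusted p = 5.27e-06). With library totals alone as the scaling the change was -0.82 and no longer passed the fold threshold. In *pup-1(0)* the difference of -0.50 was short of that threshold as well.

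The other 9 of the 10 most abundant per length showed several patterns. C44C10.5 siRNAs (N2 median 1104 CPM) stood at 484 ± 51.8 CPM in *pup-1(0)* and 273 ± 15.6 CPM in the quadruple mutant (SD, n = 3 each), and were lower in all 4 strains lacking *pup-1*, although C44C10.5 overlaps C44C10.10 on the same strand and its reads may belong to either. Its *pup-1(0)* call was lost against N2 replicates 1 to 3 and with the replicate number as a block. For comparisons with N2 the block rests on those same N2 libraries, so here and below these settings are not separate checks. For *nlp-67*, a neuropeptide-like protein gene and the only kept X-linked neuropeptide gene, no mutant differed past the thresholds from N2 (437 ± 89.1 CPM in N2, 554 ± 40.4 in *pup-1(0)*, 378 ± 9.80 in the quadruple mutant). T25B6.3 siRNAs stood at 157 CPM in N2 replicate 1 and at 2053 to 3179 CPM in the other N2 libraries. They were 1292, 261 and 181 CPM in *pup-1(0)*, a log2 difference of -1.91 that was called (edgeR adjusted p = 0.0265) and was not called without *pup-1(0)* replicate 2 or without replicate 3. The call was also lost against N2 replicates 1 to 3, with the replicate number as a block and without the filter on low counts.

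Summed over the chromosome, siRNAs of X-linked genes took a smaller share of all siRNA counts wherever *pup-1* was absent. In N2 the share was 5.52, 6.17, 6.33, 8.01, 6.70 and 6.94% in replicates 1 to 6 (mean 6.61 ± 0.843%, SD). In *pup-1(0)* it was 4.02, 4.10 and 3.78%, and in the quadruple mutant 4.23, 4.05 and 4.16%. The double mutant averaged 4.42 ± 0.551% and the triple mutant 4.08 ± 0.0285% (SD, n = 3 each), so that all 12 libraries lacking *pup-1* lay below every N2 library. The share averaged 6.83 ± 0.400% for *pup-2(0)*, 7.74 ± 0.555% for *pup-3(0)* and 6.46 ± 0.195% for *pup-4(0)* (SD, n = 3 each), and these ranges overlapped that of N2. In levels, the members summed to 45393 CPM in N2, 28876 in *pup-1(0)* and, for the quadruple mutant, 26860, while autosomal siRNAs summed to 644573, 699470 and 623758 CPM. These sums are given as a description and were not tested.

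**Figure D1:**
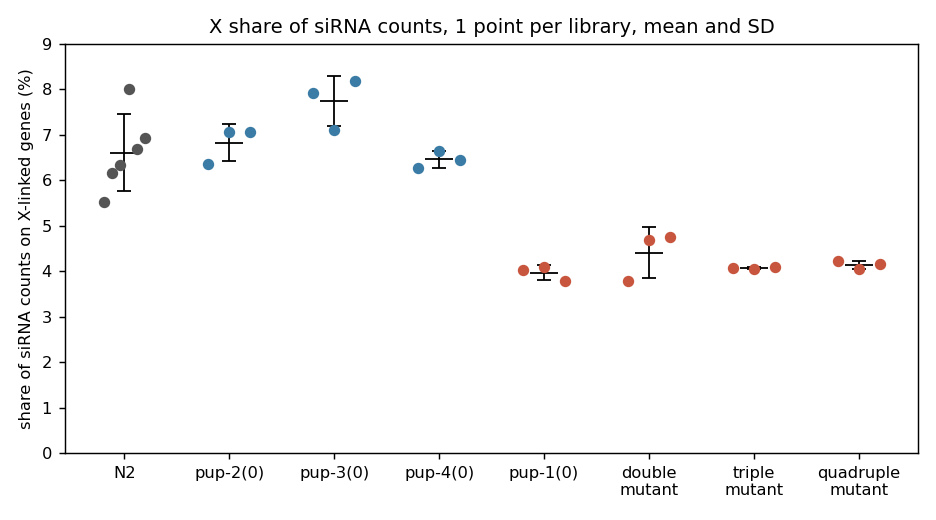
Share of all siRNA counts that fell on X-linked genes (%, y axis) in each of the 27 libraries, by genotype, with 1 point per library and bars for the mean and SD. The 12 libraries lacking *pup-1* (red) lie between 3.78 and 4.77%, below the lowest N2 library (grey) at 5.52%.

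The gene-by-gene test asked which siRNAs were differentially abundant (DA), called at an absolute log2 fold change (log2FC) above 1 with an adjusted p below 0.05. In *pup-1(0)*, 235 of the 818 X-linked siRNAs were lower and 82 were higher, which is 28.73% and 10.02% of the members, where 13.5% and 7.44% of all small RNAs tested were called in these directions. Among autosomal siRNAs 14.83% were lower and 9.142% were higher. The difference between the X and autosomal shares was not itself tested here. In the double mutant 220 members were lower (26.89%, against 12.5% of all small RNAs) and 129 were higher (15.77%, against 8.65%). In the triple mutant 253 were lower (30.93%, against 11.9%) and 64 were higher (7.824%, against 5.73%). In the quadruple mutant 221 were lower (27.02%, against 12.9%) and 132 were higher (16.14%, against 8.3%). Of autosomal siRNAs 9.456, 6.927 and 9.409% were higher in the double, triple and quadruple mutants, so higher calls were also more frequent on X. X had the highest share of lower siRNAs of the 6 chromosomes in each of these strains; chromosome V came next, with 21.63% in *pup-1(0)*.

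For *pup-1(0)* and the double, triple and quadruple mutants the median log2FC of the members was -0.55, -0.20, -0.45 and -0.21, beside -0.18, -0.11, -0.15 and -0.11 for autosomal siRNAs and -0.26, -0.12, -0.20 and -0.13 for all small RNAs tested. Without N2 replicate 1, 263 members were lower and 68 higher in *pup-1(0)*. The lower share was then 31.92% on X and 17.54% on the autosomes, so both rose. The double mutant then had 236 lower and 146 higher, the triple mutant 254 and 69, and the quadruple mutant 246 and 138. The lower shares of X in these strains were 28.64, 30.83 and 29.85%, beside 15.82, 13.55 and 17.22% of autosomal siRNAs. The set of N2 libraries used also moved these counts. Against N2 replicates 1 to 3 alone, 183 members were lower both in *pup-1(0)* and for the quadruple mutant, and against N2 replicates 4 to 6 alone 291 and 257 were. Autosomal shares moved as well. Against the former set, 22.65% of X was lower in each strain, beside 13.5 and 14.52% of autosomal siRNAs. Against the latter, 35.1 and 31% of X were lower, beside 18.84 and 16.25% of autosomal siRNAs. The difference between the X and autosomal medians in the quadruple mutant was -0.0079 against the former set and -0.19 against the latter. With library totals alone as the scaling the median of all small RNAs moved to 0.17 in the quadruple mutant, and 181 members were lower and 177 higher, so that the lower ones made up 50.56% of the members called there in place of 62.61%. In the triple mutant that scaling moved the median of all small RNAs to 0.04 and the lower share of called members from 79.81% to 68.73%.

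**Figure D2:**
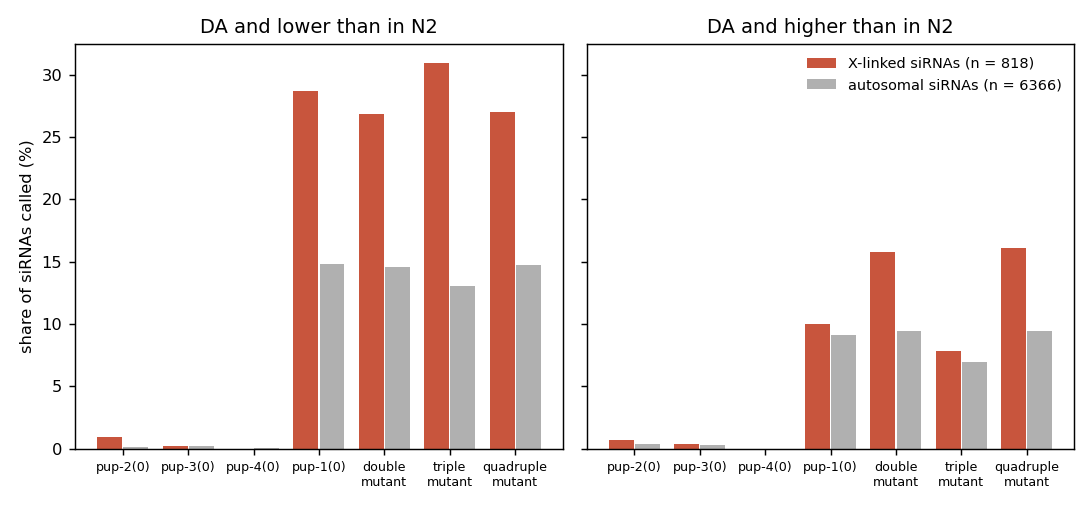
Percentage of siRNAs called DA against N2 in each mutant, lower on the left and higher on the right, for the 818 X-linked siRNAs (red) and the 6366 autosomal siRNAs (grey). In the 4 strains lacking *pup-1* between 26.89 and 30.93% of X-linked siRNAs are lower, where 13.07 to 14.83% of autosomal siRNAs are.

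The calls recurred between these strains, which share both the N2 libraries and the loss of *pup-1*. In each of the 4 strains lacking *pup-1*, 140 members were lower (17.11% of members, where 5.87% of all small RNAs tested and 6.582% of autosomal siRNAs were) and 37 were higher (4.523%, where 2.74% of all small RNAs were). In at least 1 of the 4 strains 329 members were lower (40.22%, where 22.4% of all small RNAs and 24.79% of autosomal siRNAs were) and 187 were higher (22.86%, where 14.3% and 15.99% were). None of the 4 strains had a call for 306 members (37.41%, where 63.7% of all small RNAs and 59.68% of autosomal siRNAs had none). Over all 8 genotypes together, 539 of the 818 members varied (65.89%, where 51.6% of all small RNAs did; edgeR's F test on the 7 genotype terms, adjusted p under 0.05), beside 62.61% of autosomal siRNAs.

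The X and autosomal shares lay furthest apart among abundant siRNAs. Members were divided by their mean over the 8 genotypes, with limits chosen after the values were seen. Under 10 CPM, which held 494 of the members (60.39%, against 32.94% of autosomal siRNAs), 23.68% of X-linked and 24.94% of autosomal siRNAs were lower in *pup-1(0)*. Between 10 and 100 CPM, 33.97% of 262 X-linked and 11.31% of 2865 autosomal siRNAs were lower. In these classes higher calls in *pup-1(0)* were also more frequent on X. Their shares were 7.49% on X and 3.386% on the autosomes under 10 CPM, and 16.79% and 7.086% between 10 and 100 CPM. At 100 CPM or more, 46.77% of 62 X-linked and 6.909% of 1404 autosomal siRNAs were lower, and in the quadruple mutant these shares were 62.9% and 11.25%. The pattern in higher calls ran the other way at this level: 1 of the 62 X-linked siRNAs (1.613%) was higher in *pup-1(0)*, where 21.94% of autosomal siRNAs were. Of these 62 abundant members 25 were lower in all 4 strains lacking *pup-1*. The shares were not tested against each other.

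**Figure D3:**
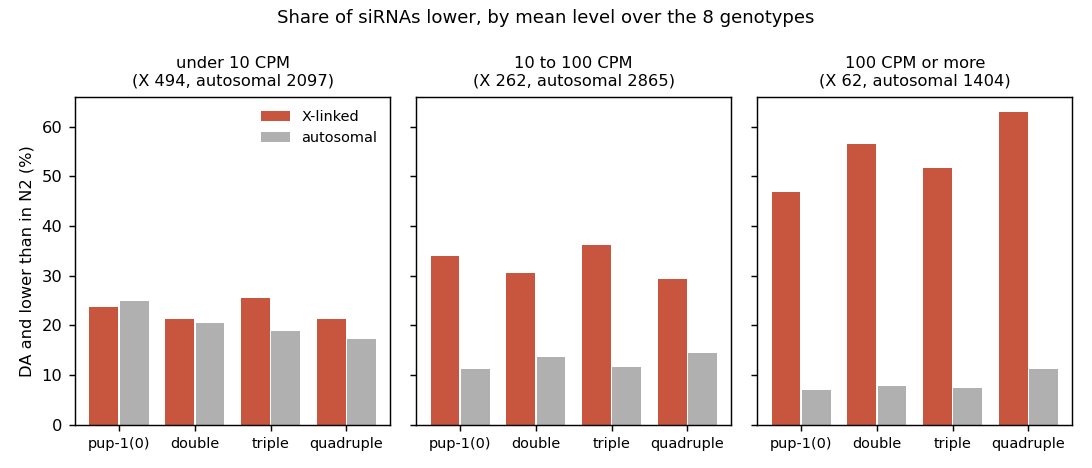
Percentage of siRNAs called lower than in N2 in the 4 strains lacking *pup-1*, in 3 classes of mean level over the 8 genotypes, for X-linked (red) and autosomal (grey) siRNAs. At 100 CPM or more, 46.77 to 62.9% of the 62 X-linked siRNAs are lower and 6.909 to 11.25% of the 1404 autosomal siRNAs; under 10 CPM the bars of *pup-1(0)* are 23.68 and 24.94%.

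The largest decreases included the siRNAs of *unc-10* and *npr-11*. *unc-10* (chromosome X, 7272317 to 7280322) encodes the RIM protein of presynaptic active zones, and its siRNAs ran from 169 to 865 CPM in N2, with a median of 632. They stood at 43.4, 76.9 and 79.9 CPM in *pup-1(0)* and at 47.99, 49.5 and 46.7 CPM in the quadruple mutant, all below every N2 library. The log2FC was -3.12 in *pup-1(0)* (± 0.34 SE, edgeR adjusted p = 1.25e-07) and -3.61 in the quadruple mutant (± 0.34 SE, edgeR adjusted p = 3.01e-08). *npr-11* (chromosome X, 1251815 to 1255647) encodes a neuropeptide receptor. Its N2 libraries ran from 14.8 CPM, in replicate 1, to 219 CPM, with a median of 135, and the *pup-1(0)* libraries stood at 4.96, 14.9 and 12.2 CPM. The highest of these 3 thus lay just above N2 replicate 1, while the quadruple mutant at 9.68, 9.29 and 11.4 CPM lay below every N2 library. *npr-11* siRNAs fell by 3.52 on the log2 scale in *pup-1(0)* (± 0.52 SE, edgeR adjusted p = 1.13e-05) and by 3.69 in the quadruple mutant. The acetylcholine receptor gene *acr-9*, chosen after its values were seen, was lower in all 4 strains lacking *pup-1* as well, at 14.2 ± 6.31 CPM in N2 and 2.81 ± 1.39 CPM in *pup-1(0)*.

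Of 3 related histone demethylase genes, 2 had lower siRNAs in the strains lacking *pup-1* and 1 had higher. *jmjd-3.3* (chromosome X, 13436422 to 13441438) is a member of the JMJD-3 family of histone H3 lysine demethylases. Its siRNAs ran from 28.2 to 147 CPM in N2 (median 90.1) and stood at 1.86, 3.59 and 4.78 CPM in *pup-1(0)*, a log2FC of -4.61 (± 0.44 SE, edgeR adjusted p = 2.61e-08). It was also lower in the double mutant (-4.28), the triple mutant (-4.74) and the quadruple mutant (-2.92). Its relatives *jmjd-3.2* and *utx-1* were added after their values were seen. *jmjd-3.2* siRNAs were lower in all 4 of these strains, from 124 ± 67.1 CPM in N2 (n = 6) to 18.2 ± 10.7 CPM in *pup-1(0)* (SD, n = 3), but the call in the quadruple mutant was lost against N2 replicates 1 to 3 and with the replicate number as a block (log2FC of -0.98 and -0.91). *utx-1*, a demethylase gene of the same family, went the other way: its siRNAs ran from 7.05 to 23.1 CPM in N2 and stood at 63.8, 71.9 and 63.5 CPM in *pup-1(0)*, a log2FC of 1.98 (± 0.26 SE, edgeR adjusted p = 2.1e-06). Among other chromatin genes chosen after their values were seen, siRNAs of *dot-1.5*, of the DOT1 histone methyltransferase family, fell (779 ± 311 CPM in N2, 231 ± 13.4 in the quadruple mutant), and those of *chd-3*, a Mi-2 remodeller, rose (18.8 ± 6.25 CPM in N2, 58.1 ± 3.75 in the quadruple mutant).

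The remaining largest falls in *pup-1(0)* or the quadruple mutant were F19G12.8, *ifd-2*, *lido-6*, R04A9.3, *clc-7*, F21G4.5 and C23F12.9. *clc-7* is a claudin-like gene and *ifd-2* encodes an intermediate filament protein. F19G12.8 stood out for its strain. It ran from 5.64 CPM, in N2 replicate 1, to 102.1 CPM in N2 (median 72.1), and stood at 3.10, 1.96 and 1.30 CPM in *pup-1(0)*, a log2FC of -5.17 (± 0.60 SE, edgeR adjusted p = 4.69e-07). In the double mutant, which lacks *pup-1* by another allele, *pup-1/-2(om129)*, it was 43.2, 92.7 and 92.5 CPM, within the N2 range. It was not called in the triple or the quadruple mutant, which carry that allele too. F19G12.8 overlaps F19G12.4 on the same strand, so the reads of the pair may be divided between them. *ergi-1* and *clec-266*, a C-type lectin gene, had the other large mean falls over the 4 strains lacking *pup-1*, at log2FCs of -3.48 and -3.24 in *pup-1(0)*.

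Apart from Y81B9A.1 below, every member that rose in *pup-1(0)* averaged under 100 CPM over the 8 genotypes. *nra-3* (chromosome X, 9925728 to 9931462), a nicotinic receptor associated gene, ran from 11.99 to 35.1 CPM in N2 with a median of 19.96. It stood at 71.9, 121 and 85.4 CPM in *pup-1(0)* and at 75.1, 93.8 and 92.6 CPM in the quadruple mutant, above every N2 library. The log2FC was 2.18 and 2.08 in these strains (± 0.21 SE each, edgeR adjusted p = 1.86e-08 and 3.89e-08). *sek-1*, which encodes a mitogen-activated protein kinase kinase of the innate immune response, rose from 4.22 ± 2.24 CPM (SD, n = 6) to 28.8 ± 6.50 CPM in *pup-1(0)* (SD, n = 3), a log2FC of 2.68 (edgeR adjusted p = 5.76e-07). *pcca-1*, a subunit of propionyl-CoA carboxylase, rose by 2.21, *tmed-12* by 2.55 and *npr-8*, a neuropeptide receptor gene that overlaps C56G3.3 on the same strand, by 2.13 in *pup-1(0)*. W05H9.2 was higher in all 4 strains lacking *pup-1*. *npr-8* was called in *pup-1(0)* and in the double mutant (2.20, from libraries at 3.15, 49.6 and 51.9 CPM) and not in the quadruple mutant, where its log2 difference was -0.34, and both calls were lost against N2 replicates 1 to 3.

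Y81B9A.1 (chromosome X, 9192444 to 9194382), named after its values were seen, was the abundant member that rose. Its N2 libraries ran from 241 to 534 CPM (median 337), *pup-1(0)* stood at 1440, 1180 and 890 CPM, and the quadruple mutant at 1276, 1308 and 1376 CPM. All 6 of these mutant libraries were above the N2 range. The log2FC was 1.71 in *pup-1(0)* (± 0.19 SE, edgeR adjusted p = 2.37e-07) and 1.88 in the quadruple mutant (± 0.19 SE, edgeR adjusted p = 7.18e-08).

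**Figure D4:**
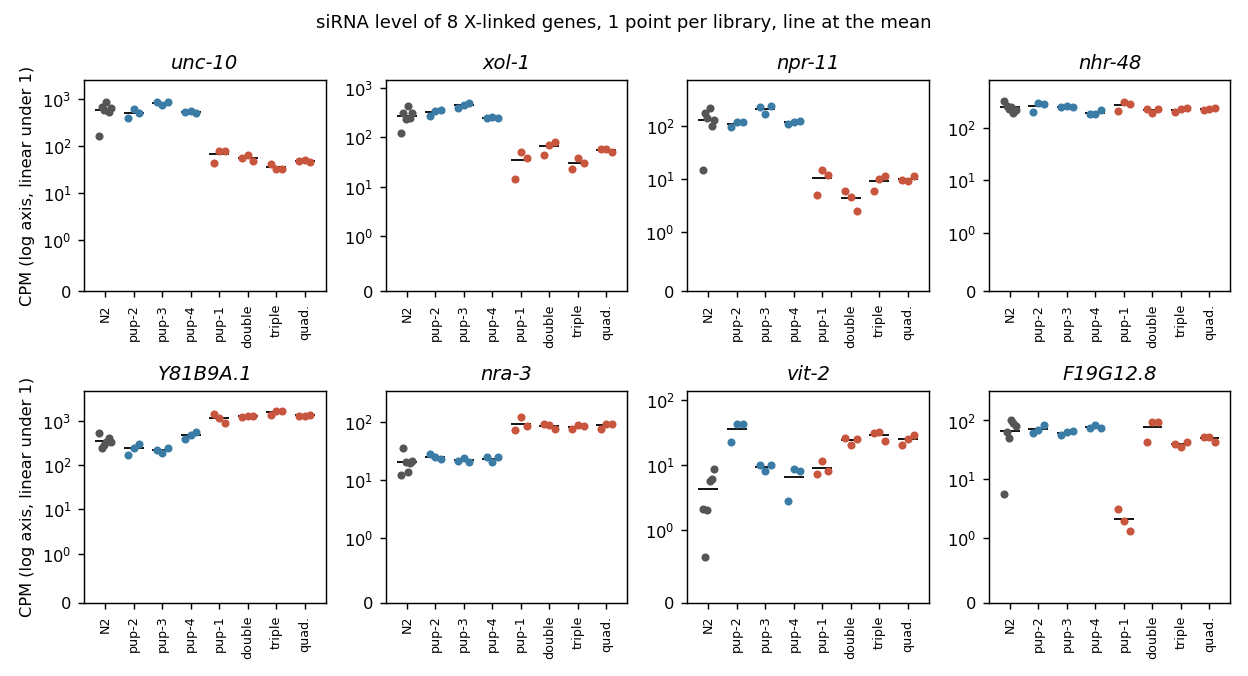
siRNA level (CPM, log axis that is linear under 1) of 8 X-linked genes in the 27 libraries, with 1 point per library and a line at each group mean. *unc-10*, *xol-1* and *npr-11* are low in the 4 strains lacking *pup-1* (red), *nhr-48* stands near 246 CPM in N2 and 227 CPM in the quadruple mutant, Y81B9A.1 and *nra-3* are high, *vit-2* is highest in *pup-2(0)*, and F19G12.8 is low in *pup-1(0)* and in N2 replicate 1.

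Of the lists of genes described by function, the regulators of sex determination and X dosage came first, since several of them count or act on the X chromosome itself. Of 7 such genes on X, 6 were kept, and 1 was lower and 3 were higher in *pup-1(0)*, where 28.73% of all members were lower and 10.02% higher. With so few genes in each list, the counts here and below are a description. *xol-1* (chromosome X, 8041313 to 8044409), the switch that sets male fate and is repressed in hermaphrodites, ran from 120 to 432 CPM in N2 with a median of 275. Its siRNAs stood at 14.3, 50.6 and 37.4 CPM in *pup-1(0)* and at 57.5, 57.7 and 51.4 CPM in the quadruple mutant, below every N2 library. The log2FC was -2.97 (± 0.35 SE, edgeR adjusted p = 4.6e-07) and -2.31 (± 0.33 SE, edgeR adjusted p = 7.62e-06), and *xol-1* was also lower in the double and the triple mutant. The genes that rose stood far lower. *sdc-2*, which brings the dosage compensation complex to X, rose from 12.7 ± 4.66 to 29.1 ± 8.68 CPM in *pup-1(0)* and to 30.7 ± 1.63 CPM in the quadruple mutant, and was not called in *pup-1(0)* without N2 replicate 1, without N2 replicate 2, without *pup-1(0)* replicate 3 or against N2 replicates 4 to 6, the last of which also ended its double and quadruple mutant calls. *sex-1*, a nuclear receptor gene that signals the number of X chromosomes, was at 2.45 ± 1.13 CPM in N2 and higher in all 4 strains lacking *pup-1*. Its values lie near the floor, and both its *pup-1(0)* and its quadruple mutant call were lost without N2 replicate 1, 2 or 4, without either of *pup-1(0)* replicates 1 and 2 or *pup-3(0)* replicates 1 and 3 in the former, and without replicate 2 or 3 of the quadruple mutant in the latter. *fox-1*, an RNA-binding X signal that overlaps R04B3.7 on the same strand, was higher in *pup-1(0)* and in the triple and quadruple mutants, and lost its triple mutant call without N2 replicate 4 or without replicate 2 or 3 of that strain. *ceh-39*, another X signal, was lower in the quadruple mutant alone (186 ± 68.5 CPM in N2, 83.6 ± 11.8 in the quadruple mutant), and its call was lost with library totals alone as the scaling, with 6 factors of unwanted variation and against N2 replicates 4 to 6 (log2FC of -0.86 to -0.77). *tra-4* was called in no mutant.

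The vitellogenin genes encode yolk proteins made in the intestine, and 4 of the 5 on X were kept, all at low siRNA levels. None of the 4 was called in *pup-1(0)*. The double and the triple mutant each had 3 higher, the quadruple mutant had 4 and *pup-2(0)* had 2, where 15.77, 7.824 and 16.14% of all members were higher in the first 3 of these strains and 0.332% of all small RNAs in *pup-2(0)*. The count of 4 rests on *vit-4*, which lost its quadruple mutant call without replicate 3 of that strain, against N2 replicates 4 to 6 and without the filter on low counts. In the triple mutant *vit-1* and *vit-4* lost their calls without its replicate 2, and *vit-3* lost its call without replicate 3 of the double mutant. *vit-2* (chromosome X, 5101042 to 5106169) ran from 0.633 to 8.90 CPM in N2 (median 3.92). It stood at 22.5, 43.6 and 42.5 CPM in *pup-2(0)* and at 20.8, 25.8 and 29.7 CPM in the quadruple mutant, above every N2 library. The log2FC was 2.97 (± 0.41 SE, edgeR adjusted p = 2.9e-04) and 2.45 (± 0.41 SE, edgeR adjusted p = 4.36e-05). *vit-1* was also called in *pup-2(0)*, with a log2FC of 2.56, and lost that call without *pup-2(0)* replicate 2 or 3. *vit-3* and *vit-4* stood at 0.491 ± 0.446 and 0.709 ± 0.541 CPM in N2, close to the floor, and vitellogenin genes resemble each other closely enough that reads may be divided among them.

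All 4 X-linked genes of small RNA pathways were kept. *alg-1*, the Argonaute of miRNAs, ran from 8.46 to 29.6 CPM in N2 (median 16.6) and stood at 36.0, 71.2 and 44.0 CPM in *pup-1(0)*, a log2FC of 1.498 (± 0.24 SE, edgeR adjusted p = 3.07e-05). Its siRNAs were higher in the double and quadruple mutants too, while the log2FC of 0.95 in the triple mutant was short of the threshold. *sid-3*, a kinase gene needed for import of double-stranded RNA, was higher in *pup-1(0)* and the double mutant (11.1 ± 5.998 CPM in N2, 24.1 ± 3.95 in *pup-1(0)*), and lost its call in *pup-1(0)* under 14 of the alternative settings, among them leaving out N2 replicate 1 or 4, *pup-1(0)* replicate 2, *pup-3(0)* replicate 1 or 3, or replicate 2 or 3 of the double mutant. *sid-5* was higher in the double mutant alone, with libraries at 0.497, 6.13 and 5.23 CPM, and lost that call without replicate 2 of this strain and against N2 replicates 1 to 3. *nrde-3*, the nuclear Argonaute, was at 14.7 ± 3.05 CPM in N2 and 17.9 ± 4.26 in *pup-1(0)* and was called in no mutant.

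Of 23 nuclear hormone receptor genes on X, 10 were kept. Of these 5 were lower in *pup-1(0)*, 4 in each of the double and triple mutants and 6 in the quadruple mutant, and 0 were higher in any of these strains. Of all members 26.89 to 30.93% were lower in these strains and 7.824 to 16.14% higher. *nhr-1*, *nhr-3*, *nhr-17* and *nhr-40* were lower in all 4 strains lacking *pup-1*. *nhr-40* siRNAs, for example, ran from 13.1 to 33.8 CPM in N2 and stood at 3.10, 3.10 and 2.93 CPM in *pup-1(0)* (log2FC -2.94 ± 0.32 SE, edgeR adjusted p = 1.02e-07). *nhr-17* and *nhr-40* overlap other genes on the same strand, and *nhr-17* lost its *pup-1(0)* call against N2 replicates 1 to 3 and with the replicate number as a block. *nhr-48*, the most abundant of the receptors named here, did not follow them: it was at 246 ± 44.6 CPM in N2 (n = 6), 270 ± 56.2 in *pup-1(0)* and 227 ± 9.90 for the quadruple mutant (SD, n = 3 each), and was called in no mutant. These 5 receptors were named after their values were seen.

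Other lists were small once filtered, because most of their X-linked genes had few siRNAs. Of 22 homeobox genes 7 were kept, 3 of them lower and 1 higher in *pup-1(0)*, where 28.73% and 10.02% of all members were. Of 34 neuropeptide genes 1 was kept, of 11 sarcomere genes 1 (*act-4*, called in no mutant), of 42 ion channel and receptor genes 5, and of 33 genes whose symbols mark cuticle collagens or related body shape mutants 3. Of these 3 only *col-180* encodes a collagen, and it was lower in the quadruple mutant. Both X-linked ribosomal protein genes were kept, and *rpl-11.2* was lower in *pup-1(0)* and both were lower in the quadruple mutant. The histone and detoxification lists held 1 and 2 kept genes with no call in any mutant. A short kinase list kept *kin-20* and *kin-29*, neither of them called, but it left out the kinase genes *sek-1*, *sid-3* and *pkn-1*, which were called and are described by their own values. Of the ubiquitin and proteasome list *usp-33* was kept and was higher in the double mutant.

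Loss of *pup-2*, *pup-3* or *pup-4* alone changed few X-linked siRNAs. In *pup-2(0)* 6 members were higher and 8 lower, where 0.332% and 0.187% of all small RNAs tested were called. *tatn-1*, a tyrosine aminotransferase gene, rose with *vit-1* and *vit-2*, from 0.970 ± 0.635 CPM in N2 to 7.09 ± 1.85 CPM in *pup-2(0)*. The largest falls were *acox-1.6*, an acyl-CoA oxidase gene, C36B7.6 and *chup-1*, a cholesterol uptake gene. *acox-1.6* stood at 8.22 ± 4.96 CPM in N2 and 1.76 ± 1.13 CPM in *pup-2(0)* (edgeR adjusted p = 0.0492). The calls of *acox-1.6* and *chup-1* in *pup-2(0)* were lost under 22 and 23 of the alternative settings. In *pup-3(0)* 3 members were higher and 2 lower, where 0.259% and 0.145% of all small RNAs were called. These counts moved with single libraries: for *pup-2(0)* 22 or 23 members were called without N2 replicate 1, 2 or 3, 8 without N2 replicate 5 or 6, and 3 to 8 without any 1 of its own replicates, and for *pup-3(0)* 16 and 11 without N2 replicate 2 or 3 and 3 without N2 replicate 5 or its own replicate 2 or 3. The share of all small RNAs called without each library is not given here, so whether X moved apart from the rest was not tested.

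The genes called in *pup-3(0)* were *pkn-1*, *aakg-4*, F28H6.8, *syg-2* and *suca-1*. *pkn-1*, a protein kinase gene (chromosome X, 10397242 to 10402576), ran from 30.7 to 45.3 CPM in N2 and stood at 79.8, 94.5 and 100.01 CPM in *pup-3(0)*, with no overlap. Its log2FC was 1.18 in *pup-3(0)* (± 0.12 SE, edgeR adjusted p = 3.82e-06) and 1.49 in *pup-1(0)*. *aakg-4*, an AMP-activated kinase subunit gene that overlaps T01B6.9 on the same strand, was higher in *pup-3(0)* (1.93) and lower in *pup-1(0)* (-2.44), and its *pup-3(0)* call was lost under 15 of the alternative settings. F28H6.8 was called both in *pup-3(0)* (2.61) and in *pup-2(0)* (1.80). *suca-1*, a succinyl-CoA synthetase subunit gene, and *syg-2*, a synapse formation gene that overlaps C26G2.9 on the same strand, were lower in *pup-2(0)* as well, and each of these calls was lost without at least 1 replicate of its own strain. In *pup-4(0)* edgeR called 0 members, where 0.0518% of all small RNAs tested were called in either direction. At an unadjusted p under 0.05 edgeR's test had 30 of the 818 members, no more than that threshold passes by chance alone. DESeq2 called 1.

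Fewer X-linked siRNAs were called between successive strains lacking *pup-1* than between these strains and N2. These steps compare 3 libraries with 3, where N2 has 6, so the counts are not on a par. The first step also exchanges *pup-1(tm1021)* for *pup-1/-2(om129)*, so loss of *pup-2* and the change of allele cannot be told apart. From *pup-1(0)* to the double mutant 40 members rose and 6 fell, where 3.33% and 0.788% of all small RNAs were called. From the double to the triple mutant 4 fell and 0 rose, where 0.487% of all small RNAs were called in either direction. The 4 were *atf-4*, F21G4.5, C17H11.2 and *irg-7*. *atf-4*, a stress-responsive transcription factor gene that overlaps another gene on the same strand, stood at 28.1, 79.6 and 84.1 CPM in the double mutant and at 10.1, 18.4 and 14.1 CPM in the triple mutant, a log2FC of -2.12 (edgeR adjusted p = 2.95e-04). From the triple to the quadruple mutant F16F9.4, F54G2.1 and R193.2 rose and F41G4.7 fell, where 0.612% of all small RNAs were called. F41G4.7 stood at 266, 359 and 239 CPM in the triple mutant and at 127, 85.2 and 56.7 CPM in the quadruple mutant. The genes of these last steps were chosen after their values were seen, except F21G4.5. The steps rest on few libraries. Replicate 1 of the double mutant differed from the other pair (as for *atf-4*), and the let-7, lin-4, mir-48, mir-84 and mir-241 miRNAs summed to 25787 CPM in it, where replicates 2 and 3 stood at 73711 and 66945 CPM, above N2 replicates 2 to 6. The part of this difference in the calls was not tested. Without replicate 1, 78 members rose and 24 fell from *pup-1(0)* to the double mutant and 46 were called from the double to the triple mutant. Without N2 replicate 1 these counts were 75, 10 and 9, and 10 members were called from the triple to the quadruple mutant. Without *pup-1(0)* replicate 2 or 3, or without replicate 3 of the double mutant, 10 to 20 members rose in the first of these steps, and without any 1 replicate of the strains compared 0 to 2 were called in the last. For these counts with a library left out, the shares over all small RNAs are not given.

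A few members changed direction between strains. *eor-2*, F19G12.4, H40L08.3 and Y102A11A.3, all chosen after their values were seen, were lower in *pup-1(0)* and higher in another strain lacking *pup-1*. The other strains lacking *pup-1* carry *pup-1/-2(om129)* and not *pup-1(tm1021)*. A change of allele and the loss of further *pup* genes thus cannot be told apart here. F19G12.4, which overlaps F19G12.8 on the same strand, stood at 6.42 ± 4.91 CPM in N2 (n = 6), 0.471 ± 0.412 in *pup-1(0)* and 22.7 ± 4.54 for the quadruple mutant (SD, n = 3 each), and its quadruple mutant call was lost against N2 replicates 4 to 6. *eor-2* and H40L08.3 lost their call in *pup-1(0)* without N2 replicate 1, in which they were at 25.4 and 20.5 CPM, and also without *pup-1(0)* replicate 1 or 3, and *eor-2* without N2 replicate 5 or *pup-1(0)* replicate 2 as well. H40L08.3 lost its call in the quadruple mutant without N2 replicate 2, 3 or 6 or without replicate 2 or 3 of that strain. Y102A11A.3 ran from 3.8 to 50.6 CPM within N2 and lost its *pup-1(0)* call against N2 replicates 1 to 3, with 6 factors of unwanted variation and with the replicate number as a block. Its double mutant call (log2FC 1.33, edgeR adjusted p = 0.0491) was lost under 27 of the alternative settings.

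The siRNAs were spread along the whole of X. With the chromosome divided into 10 equal bins of 1.772 Mb, the rightmost bin held 22.86% of the summed N2 CPM, and it contains *got-1.2*. Its sum went from 10378 CPM in N2 to 6754 CPM in *pup-1(0)* and 4861 CPM in the quadruple mutant. The share of members lower in *pup-1(0)* ran from 22.39 to 35.87% over the bins, so lower siRNAs occurred in every bin.

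**Figure D5:**
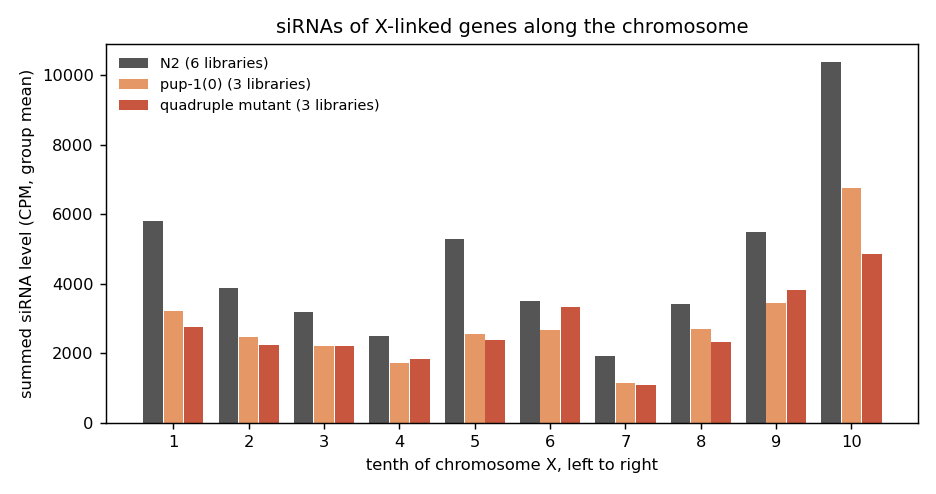
Summed level of X-linked siRNAs (CPM, mean over libraries) in 10 equal bins of chromosome X from left to right, for N2 (grey), *pup-1(0)* (orange) and the quadruple mutant (red). N2 is the tallest bar in every bin, and the rightmost bin is the largest at 10378 CPM in N2.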

How the data were processed

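Small RNA was sequenced by the authors from 27 libraries of 8 genotypes. The authors trimmed adapters with cutadapt, kept reads of 15 to 26 nucleotides, and used HISAT2 for mapping and smalldisco for counting. Tool versions are not given in the sources used here. The deposited values are whole-number counts per gene without normalization, with replicates kept apart. For siRNAs they sum the reads antisense to coding exons, whatever the 3′ tail. Groups and replicate numbers came from the labels, which name no batch.

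Symbols, coding lengths and 1-based positions came from Ensembl 115 (WBcel235), in which 20147 of the 20150 listed IDs were found. It is not the release used for counting. The 10062 protein-coding IDs are called siRNAs. The analysis used edgeR 4.0.16 and limma 3.58.1 in R 4.3.3. Rows passing filterByExpr (minimum count 10) were scaled by TMM and fitted to all 27 libraries in 1 robust quasi-likelihood model with genotype as its only term. Comparisons were each mutant against N2, the 3 steps between strains lacking *pup-1*, and an F test over genotypes, all adjusted by Benjamini-Hochberg over the 9645 rows kept. The paper describes the replicates as independent and biological, and the strains as raised side by side. Its filter on tails set mutants against 3 N2 replicates run with them, but the sources used here do not say which N2 libraries ran with which mutant, so all 6 were used in every comparison. The paper names EDASeq and RUVSeq without the functions, so 6 factors of unwanted variation were an alternative, in an implementation written for these comparisons. DESeq2 1.42.0, other scalings and filters, either set of 3 N2 replicates, and leaving out each library were others. Shares, medians and sums over members carry no test. Data were simulated for the 27 libraries at their own sizes, with changes in the quadruple mutant for rows drawn from all 9645 small RNAs. Of 100 rows changed by a log2 fold change of 1.5, 52 were called in the quadruple mutant. Of 100 changed by 2.5, 68 were called, and there were 3 false calls. The rows drawn were not X-linked siRNAs alone.

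The members, the gene lists and the tests were chosen with earlier results of these data known. Genes were named by a rule: the 10 most abundant members per kilobase, the 5 largest rises and falls in *pup-1(0)* and the quadruple mutant (all mutant libraries outside the N2 range, at least 10 CPM in the higher group), the 5 largest and lowest mean changes among members called in all 4 strains lacking *pup-1*, the calls of *pup-2(0)* and *pup-3(0)* (the 3 largest each way where there were more than 6), and the members of 4 lists. The 33 other genes were chosen after their values were seen. Sequences and 3′ tails are not analysed here.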

Additional observations from a re-analysis of the deposited data

Results flagged for a closer look

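Among the 89 named genes, the 6 N2 libraries held 1 value far from the other 5 for 11 genes, by Dixon's test at the 95% level, and 9 of these values came from N2 replicate 1. In all 90 groups of 6 were tested, and chance alone flags about 1 in 20. T25B6.3 stood at 157 CPM in replicate 1 and 2053 to 3179 CPM in the others. *sma-9*, which encodes a transcription cofactor of the BMP pathway, was low in the same library, at 15.5 CPM against 33.8 to 44.7 CPM. The other 7 values of replicate 1 were high: R09H3.3 at 1531 CPM, *ceh-41* at 119 CPM, *unc-2* at 56.4 CPM, *eor-2* at 25.4 CPM, *aakg-4* at 19.7 CPM, *rsef-1* at 19.04 CPM and *irg-7* at 6.35 CPM. *unc-2*, a calcium channel gene, was at 9.18 to 21.8 CPM in the other N2 libraries, and in the quadruple mutant it was called higher (53.4 ± 5.19 CPM, SD, n = 3) at a level that N2 replicate 1 also reached. The remaining values were *ifd-2* at 22.2 CPM in replicate 6 and *sid-5* at 2.22 CPM in replicate 2, a level of few reads. Whether these values come from the library or from the animals was not tested.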

How the results depend on the processing

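The excess of lower calls on X over the autosomes kept its direction under all 40 settings: the X share was 1.51 to 2.68 times the autosomal share in *pup-1(0)*, 1.43 to 2.36 times in the double mutant, 1.87 to 2.95 times for the triple and 1.48 to 2.44 times for the quadruple mutant. The X median stayed below the autosomal median, by -0.37 in *pup-1(0)*, -0.10 for the double, -0.30 for the triple and -0.09 for the quadruple mutant. Against N2 replicates 1 to 3 these differences were -0.23, -0.06, -0.22 and -0.0079, against N2 replicates 4 to 6 those of the triple and quadruple mutants were -0.44 and -0.19, with a minimum count of 50 they were -0.43 and -0.16, and with a library left out they ran from -0.38 to -0.25 and from -0.15 to -0.063. For the double mutant they ran from -0.23 without its replicate 3 to -0.06 without its replicate 1. Causes were not tested, except that stricter filters test fewer genes.

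A minimum of 10 CPM in 3 libraries left 51 members higher in *pup-1(0)*, 78 higher and 141 lower in the double mutant, 166 lower for the triple and 144 lower for the quadruple mutant. With 6 factors of unwanted variation 114 were higher in the triple mutant, 66.96% of its calls being lower. The counts of the single mutants and the steps moved most. They are counts of X-linked siRNAs, and the share of all small RNAs called under each setting is not given beside them. Whether these movements are particular to X was therefore not tested. Without the filter and in DESeq2 the 1338 listed X-linked genes were entered, in place of the 818 members. *pup-2(0)* (14 calls) had 23 with 6 factors, 28 in DESeq2, 6 against N2 replicates 1 to 3, 51 against N2 replicates 4 to 6 and 3 to 23 with a library left out. *pup-3(0)* (5 calls) had 17, 25 and 40 with 6 factors, in DESeq2 and against N2 replicates 4 to 6, and 3 to 16 with a library left out. *pup-4(0)* (0 calls) had 19 against N2 replicates 1 to 3 and 1 in DESeq2. From *pup-1(0)* to the double mutant the 40 higher calls became 21 with total counts, 26 with 10 CPM in 3 libraries, 65 with siRNAs alone, 87 against N2 replicates 4 to 6, 70 in DESeq2 and 10 to 78 with a library left out. The 6 lower calls became 2 with TMM on autosomal siRNAs, 13 with 6 factors, 2 with 10 CPM in 3 libraries, 1 without a filter, 10 against N2 replicates 4 to 6, 11 in DESeq2 and 1 to 24 with a library left out. From the double to the triple mutant 4 calls became 21 with 6 factors, 8 with siRNAs alone, 7 and 27 against either set of N2 replicates, 26 in DESeq2 and 1 to 46 with a library left out. From the triple to the quadruple mutant 4 calls became 11 with 6 factors, 8 with 10 CPM in 3 libraries, 7 and 29 against either set of N2 replicates, 15 in DESeq2 and 0 to 10 with a library left out.

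In the 21 pairs compared, same-numbered libraries showed little sign of pairing. Their deviations had correlations from -0.45 to 0.40, above 0.1 in 3, and 3 pairs correlated best with their own number. Replicate numbers above 3 occur in N2 alone, so any pairing of those N2 libraries with mutant libraries could not be seen. With the replicate number as a block, 184 members were lower and 87 higher in *pup-1(0)*, and 177 lower and 134 higher in the quadruple mutant. The N2 libraries numbered above 3 share a block with no mutant library, so they add nothing to comparisons with N2. For these comparisons the block nearly repeats the setting with the first 3 N2 replicates alone. That setting gave 183 lower and 85 higher in *pup-1(0)*, and 183 and 135 in the quadruple mutant. The settings are therefore not separate checks. The block gave 6 calls in *pup-2(0)*, 16 in *pup-4(0)*, 7 from the double to the triple mutant and 8 from there to the quadruple mutant.

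For the named genes, 126 calls in *pup-1(0)* or the quadruple mutant were recomputed in 4904 alternative values. Of these 109 lost the call and 0 reversed, in 27 gene and strain combinations. Depth limits values near 3 counts, such as those of *vit-3*, *sex-1* and *sid-5*.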
